A study of Mus musculus with 6 samples.

Results

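The 33 genes described here are interferon-stimulated genes, 27 grouped as type I members and 6 as interferon-gamma members, out of 32285 features in each count table. They are taken by gene symbol from a list drawn up with earlier results of these data known, and every symbol was found in all 6 libraries. The type I members are the transcription factors Stat2, Irf9 and Irf7; the nucleic acid sensors Ddx58, Ifih1, Dhx58 and Zbp1; the antiviral effectors Ifit1, Ifit2, Ifit3, Oasl1, Oasl2, Oas3, Rsad2, Cmpk2, Ifitm3 and Bst2; the ISG15 system of Isg15, Usp18 and Herc6; and Xaf1, Slfn4, Slfn5, Parp14, Rtp4, Ifi44 and Trim30a. The interferon-gamma members are the large and small GTPases Gbp2, Gbp3, Gbp5, Igtp, Irgm1 and Ifi47.

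Interferons bind paired receptors on the cell surface, and the receptor-bound JAK kinases then phosphorylate STAT proteins. Type I interferon acts through a complex that holds Stat2 and Irf9 and binds interferon-stimulated response elements, whereas interferon-gamma acts through gamma-activated sites. The grouping is one of habit rather than a strict division, since many of the GTPases respond to both kinds of interferon and several type I members respond to interferon-gamma.

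The libraries were 10x Chromium 3′ single-cell RNA libraries from mice that had received 10000 SB28 cells, a mouse glioma line, and were sampled on day 18. Neutrophils were isolated by flow cytometry, as CD45+ CD11b+ cells with high LY6G and low or no LY6C, from blood (2 libraries) and from the brain tumor (2 libraries), and all CD45+ cells of the tumor were taken for 2 further libraries. All 3 groups therefore came from tumor-bearing mice, there was no tumor-free control, and strain, sex, age and genotype of the mice are not given in the labels. Blood was drawn by puncture, and the tumor was taken after perfusion with PBS and processed, so tissue and handling cannot be told apart. The labels do not say whether the 2 libraries of a group came from different mice, so each p-value measures only the spread between these libraries.

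A neutrophil was any cell in which S100a8 and S100a9 together made up at least 0.5% of its UMIs (unique molecular identifiers, the counted RNA molecules). This gave 2951 and 5006 cells in the blood libraries, 3347 and 5548 in the sorted tumor libraries, and 614 and 809 in the CD45+ libraries, with between 1385334 and 24386241 UMIs per library and median depths between 1613.5 and 4253 UMIs per cell. All 11 neutrophil markers were detected in each of the 6 libraries. Cells with phagocyte RNA, in which C1qa, C1qb, C1qc and Apoe reached 0.2% of UMIs, made up 1.39% and 4.51% of the blood neutrophils, 8.54% and 6.52% of the sorted tumor neutrophils, and 24.6% of the CD45+ tumor neutrophils in both libraries. In the tumor groups they held a larger share of the UMIs than of the cells. Without them CD45+ neutrophil UMIs went from 1385334 and 3400261 to 833587 and 1752905. Those of the sorted tumor went from 15506162 and 24386241 to 12325930 and 20733253. Levels are given as CPM, a gene's UMIs scaled to a total of 1000000 UMIs over the cells of that class in that library. The summed level of 11 macrophage markers was 407 and 523 CPM in blood, 5266 and 4066 in sorted tumor and 8868 and 13037 in CD45+ tumor neutrophils; without those cells it was 364 and 357, 503 and 451, and 1041 and 1290. Libraries shared 3 to 26 barcodes in all pairs but one, whereas CD45+ tumor library 1 and sorted tumor library 2 shared 145; 63 of these were neutrophils in the sorted library, held 7.01% of its neutrophil UMIs, and 53 of the 63 had phagocyte RNA. Results are therefore given with and without the cells with phagocyte RNA, and the main counts also without shared barcodes.

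To show the elements through which these genes are usually induced, the 180 bases before the RefSeq transcription start (build GRCm38.p6) are given for 3 type I members and 1 interferon-gamma member that were higher in tumor than in blood neutrophils, for Oas3, which was lower, and for Slfn4, which was higher and holds no match. The sequences read 5′ to 3′ along each gene's own strand, and capitals mark every place, on either strand, where GAAA is followed after any 2 bases by GAAA, the core of the interferon-stimulated response element.
Isg15 (chr4:156200819-156200998, minus strand): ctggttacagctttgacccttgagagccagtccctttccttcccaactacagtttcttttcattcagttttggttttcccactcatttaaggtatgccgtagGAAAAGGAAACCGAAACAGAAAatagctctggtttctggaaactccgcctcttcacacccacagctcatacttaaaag
Rsad2 (chr12:26456453-26456632, minus strand): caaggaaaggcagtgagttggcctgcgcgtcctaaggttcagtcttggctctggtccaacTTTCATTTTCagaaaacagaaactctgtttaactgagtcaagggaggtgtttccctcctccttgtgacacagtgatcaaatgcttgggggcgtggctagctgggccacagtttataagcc
Ifit1 (chr19:34640709-34640888, plus strand): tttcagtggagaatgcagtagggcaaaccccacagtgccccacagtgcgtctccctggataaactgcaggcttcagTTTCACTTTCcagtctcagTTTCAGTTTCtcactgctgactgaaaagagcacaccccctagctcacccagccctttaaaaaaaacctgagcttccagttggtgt
Gbp5 (chr3:142496754-142496933, plus strand): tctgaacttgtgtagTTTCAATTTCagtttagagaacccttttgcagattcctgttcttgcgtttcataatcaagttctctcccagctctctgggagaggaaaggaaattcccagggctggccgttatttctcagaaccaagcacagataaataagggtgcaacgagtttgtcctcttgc
Oas3 (chr5:120777660-120777839, minus strand): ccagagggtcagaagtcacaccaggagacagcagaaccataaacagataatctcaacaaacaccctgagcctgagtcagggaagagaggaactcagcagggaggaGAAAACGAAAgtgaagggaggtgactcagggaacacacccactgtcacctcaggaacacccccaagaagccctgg
Slfn4 (chr11:83175006-83175185, plus strand): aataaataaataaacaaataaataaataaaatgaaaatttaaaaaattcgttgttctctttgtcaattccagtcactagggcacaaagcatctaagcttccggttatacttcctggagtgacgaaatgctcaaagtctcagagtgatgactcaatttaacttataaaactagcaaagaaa

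Counting the first transcribed base as +1, the match begins at -75 in Oas3, -120 in Rsad2 and -165 in Gbp5, and the matches begin at -104 and -85 in Ifit1. Isg15 holds 3 overlapping matches that begin at -78, -72 and -66 and form 1 run of 22 bases. In windows from 250 bases before to 50 after the start, the motif was present in 18 of 32 windows of the 28 members found in the RefSeq table, against 3.443% of all 32851 windows. The palindrome TTCNNNGAA, a core of the gamma-activated site, was present in 5 of the 32 member windows and in 8.298% of all windows, and 149 of all windows held both motifs. Of the 17 members with a response element match, 10 were higher and 2 lower in sorted tumor than in blood neutrophils; of the 11 without one, 7 were higher and 1 lower. A match of letters is a description of these windows and does not show binding. Zbp1, Dhx58, Parp14, Usp18 and Rtp4 were not matched.

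The first comparison asks how the members differ between neutrophils sorted from the tumor and from blood. Most members were higher in the tumor: 20 of 33 were higher and 3 lower (edgeR's quasi-likelihood test on UMIs summed per library, Benjamini-Hochberg adjusted p under 0.05). Over all 13635 genes tested, 33.3% were higher and 30.7% lower, so the members' share of higher genes was above the background and their share of lower genes below it. The median log2 difference was 0.96 over the members and 0.02 over all genes. Both tumor libraries lay above both blood libraries for 23 members and below them for 4, and 6 overlapped; the libraries of the groups did not overlap for 82.6% of all genes. Without cells with phagocyte RNA, 23 of 32 members tested were higher and 0 lower, against 29% and 28.4% of all genes, with 23 members at an unadjusted p under 0.05. Both tumor libraries then lay above blood for 21 of the 33 and below it for 5, against 81.1% of all genes without overlap. With or without those cells, groups without overlap were no more common among the members than among all genes. A lack of overlap, as given below for single genes, therefore does not by itself set a member apart. On unscaled totals of the same cells 19 were higher and 4 lower, and the split of all genes moved from 3691 higher and 3620 lower to 2743 and 4933. That scaling moves every difference up by 0.34 on the log2 scale, and the scaling of all neutrophils by 0.06; differences are therefore relative to the typical gene. Without shared barcodes the counts were 18 higher and 1 lower of 32. The number of lower members was 1 without tumor library 1 and 1 without blood library 2, while the number of higher members stayed between 18 and 22 when any 1 library was left out. Below, levels are CPM, in libraries 1 and 2, and differences are log2 (tumor minus blood) ± standard error from the same fit. Levels are compared within a gene, since 3′ counts are not scaled by length. In mm10 the 3 IFIT genes lie together on chromosome 19, and Gbp2, Gbp3 and Gbp5 together on chromosome 3.

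**Figure D1:**
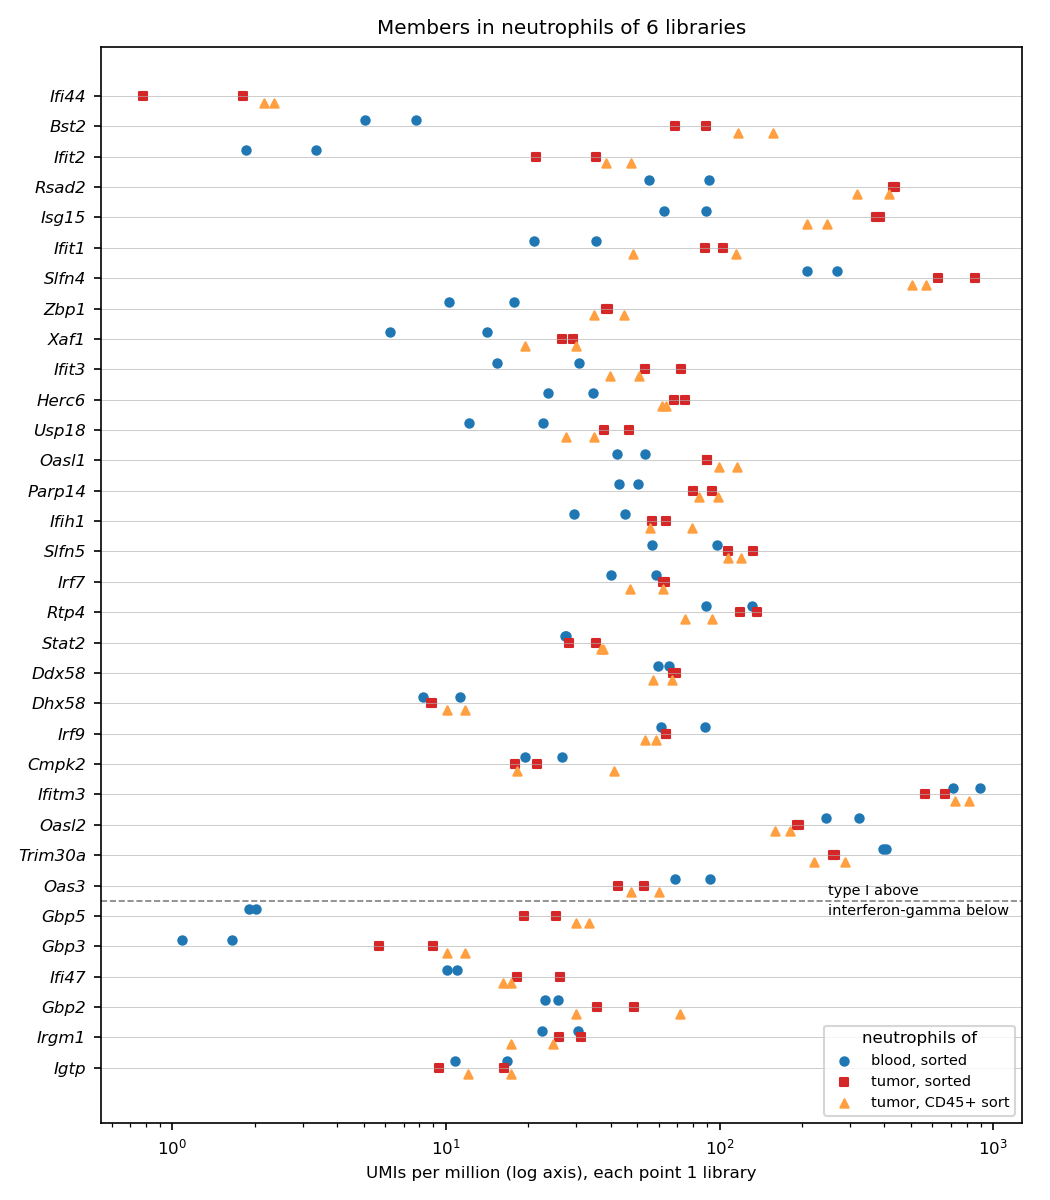
Level of each member in the neutrophils of the 6 libraries, in CPM (UMIs scaled to 1000000) on a log axis, with 1 point per library; type I members stand above the dashed line and interferon-gamma members below it, and Ifi44 at 0 in both blood libraries is not drawn. Isg15, Rsad2, Ifit2, Bst2 and Gbp5 lie far to the right of blood in both tumor groups, whereas Oasl2, Oas3 and Trim30a lie to the left.

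The ISG15 system rose as a whole, 3 of 3. Isg15, a ubiquitin-like protein that is attached to other proteins, stood at 62.5 and 89.5 CPM in the blood libraries and at 385 and 374 in the sorted tumor libraries. The 2 tumor libraries were close to each other and both far above blood. The difference was 2.38 ± 0.17 (adjusted p = 2.11e-05, edgeR's quasi-likelihood test) and 2.75 ± 0.17 without cells with phagocyte RNA, where the levels were 62.9 and 89.7 against 415 and 398. Usp18, the protease that removes ISG15 and dampens the type I receptor, was at 12.1 and 22.6 in blood and 37.7 and 46.7 in tumor, a difference of 1.35 ± 0.27. Herc6, the main ISG15 ligase of the mouse, was at 23.6 and 34.5 against 74.9 and 68.2, a difference of 1.36 ± 0.17. The groups did not overlap for either gene.

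Among the 10 antiviral effectors 6 rose and 2 fell, and the genes of 1 family parted. Rsad2, which encodes viperin, an enzyme that makes a chain-terminating nucleotide, was at 55.4 and 91.3 in blood and at 432 and 437 in sorted tumor neutrophils. Both tumor libraries exceeded both blood libraries several fold, with a difference of 2.63 ± 0.22 (adjusted p = 3.87e-05, edgeR's quasi-likelihood test). Of the IFIT genes, Ifit1 encodes a protein that binds viral RNA that lacks the host's cap methylation. Ifit1 was at 20.99 and 35.3 against 88.6 and 103, a difference of 1.84 ± 0.23. Ifit2 was scarce in blood, at 1.87 and 3.34, and reached 35.2 and 21.4 in tumor, a difference of 3.44 ± 0.29. Ifit3 was at 15.4 and 30.6 against 72.3 and 53.5, a difference of 1.49 ± 0.27. All 3 IFIT genes thus rose without overlap, Ifit2 by the most. Ifit3 has a near-identical neighbour, Ifit3b, and the sources used here do not give how reads that match both were counted.

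Bst2, which encodes tetherin, the protein that holds budding virus at the cell surface, showed the greatest difference of the members with UMIs in both blood libraries, 3.66 ± 0.20 (adjusted p = 6.94e-06, edgeR's quasi-likelihood test), from 5.05 and 7.76 in blood to 89.1 and 69.0 in tumor. It is also the member whose value moved most when cells with phagocyte RNA were left out: tumor levels became 27.0 and 20.3 and the difference 2.27 ± 0.20, still without overlap with blood (5.12 and 7.103). The Bst2 level of the tumor neutrophils was 21.5% and 13.2% of that of phagocytes in the same sort with all cells and 6.51% and 3.86% without those cells.

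The oligoadenylate synthetase genes went both ways. Oasl1, an OAS-like gene without synthetase activity that limits Irf7 translation, rose from 42.3 and 53.6 to 89.9 and 89.8, a difference of 0.97 ± 0.14. Oasl2, at 245 and 324 in blood and 195 and 192 in tumor, fell, with a difference of -0.49 ± 0.15 (adjusted p = 0.0189, edgeR's quasi-likelihood test). Oas3, which makes the second messenger that activates RNase L, fell from 68.6 and 92.2 to 42.6 and 53.1, a difference of -0.67 ± 0.19 (adjusted p = 0.0155, the same test). Both tumor libraries lay below both blood libraries for each of these 2 genes, also without cells with phagocyte RNA, but there neither passed the test (-0.13 ± 0.14 and -0.29 ± 0.18). Cmpk2, a nucleotide kinase next to Rsad2 on chromosome 12, overlapped between groups, at 19.5 and 26.5 against 21.6 and 17.9 (-0.17 ± 0.16). Ifitm3, which blocks viral fusion at endosomes, was at 711 and 898 in blood and 562 and 668 in tumor; both tumor libraries were lower, but the difference of -0.32 ± 0.18 did not pass (adjusted p = 0.155, the same test).

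**Figure D2:**
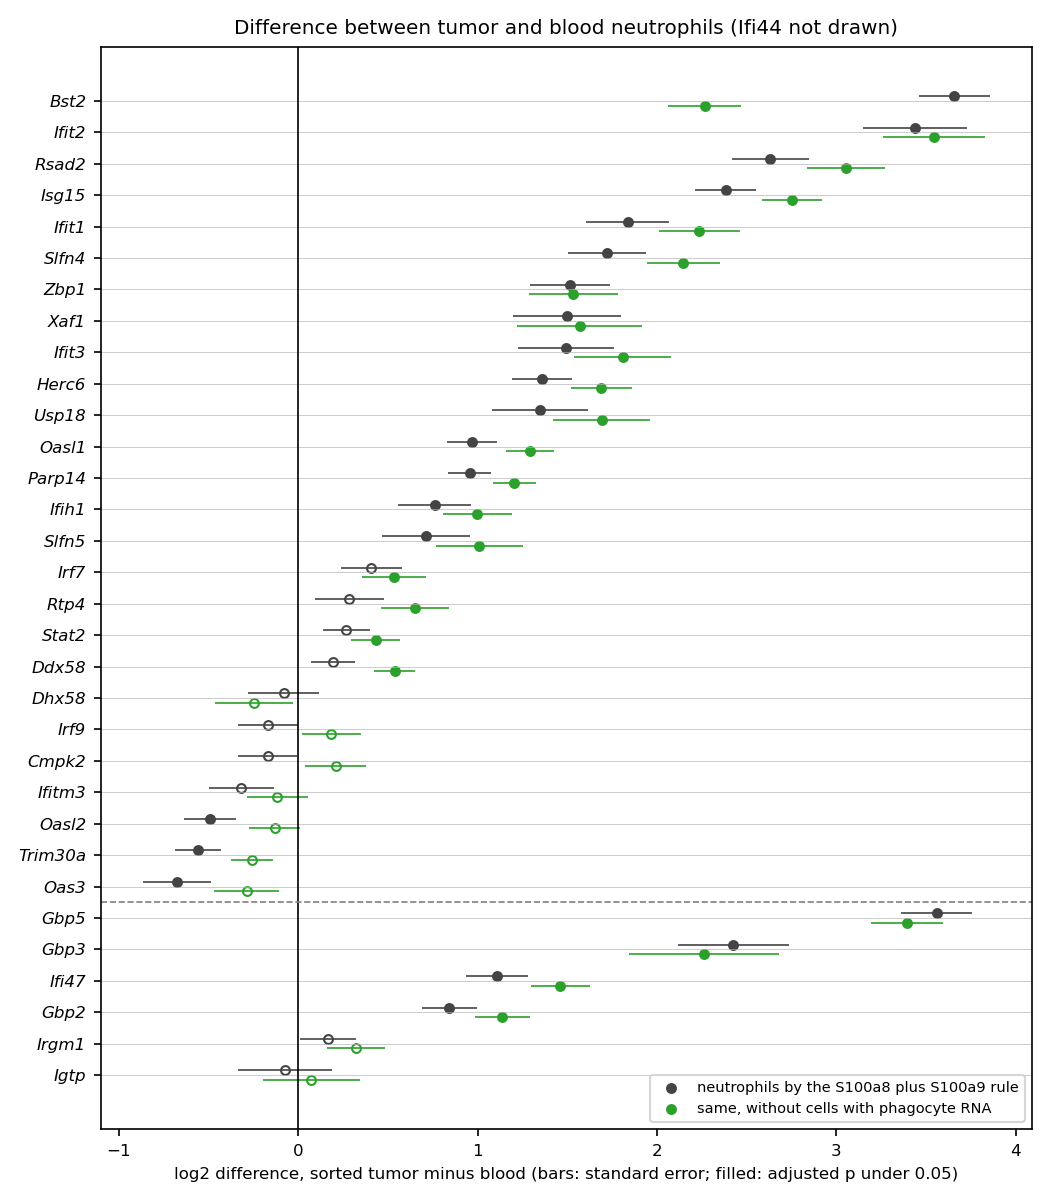
Log2 difference between sorted tumor and blood neutrophils for 32 members, with bars for the standard error and filled points for an adjusted p under 0.05, for all neutrophils by the S100a8 and S100a9 rule and without cells with phagocyte RNA. The 2 values lie close for most members and differ most for Bst2 (3.66 ± 0.20 and 2.27 ± 0.20); Ifi44 has 0 UMIs in blood and is not drawn.

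Of the 4 nucleic acid sensors 2 rose. Zbp1, a sensor of Z-form nucleic acid that can start cell death, was at 10.3 and 17.8 in blood and 39.0 and 38.3 in tumor, a difference of 1.52 ± 0.22. Ifih1, which encodes the long double-stranded RNA sensor MDA5, was at 29.4 and 45.1 against 56.4 and 64.0, a difference of 0.76 ± 0.20. Ddx58, which encodes RIG-I, was at 59.8 and 65.6 against 67.6 and 69.5; the groups did not overlap, but the difference of 0.19 ± 0.12 did not pass, while 0.54 ± 0.12 without cells with phagocyte RNA did. Dhx58, the regulatory relative LGP2, overlapped, at 8.24 and 11.3 against 8.90 and 8.82.

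Of the 3 transcription factors 0 passed the test, with 1, Irf7, at an unadjusted p under 0.05 and 0 called by DESeq2. Stat2 was at 27.2 and 27.6 in blood and 35.5 and 28.2 in tumor (0.27 ± 0.13), and Irf9 at 61.3 and 88.6 against 63.7 and 64.0 (-0.17 ± 0.17). Irf7, the interferon-induced factor that amplifies interferon transcription, was at 40.0 and 58.8 against 63.1 and 62.3, a difference of 0.41 ± 0.17 (adjusted p = 0.0686, edgeR's quasi-likelihood test). Without cells with phagocyte RNA Stat2 (0.43 ± 0.14) and Irf7 (0.53 ± 0.18) passed, although the levels of their libraries then overlapped.

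Of the other 7 type I members 5 rose and 1 fell. Slfn4, a Schlafen family gene of myeloid cells, was at 209 and 269 in blood and 630.0 and 861 in tumor, a difference of 1.72 ± 0.22; Slfn5 of the same family was at 56.6 and 97.6 against 107 and 133, a smaller difference of 0.72 ± 0.25. Xaf1, a pro-apoptotic factor, was at 6.22 and 14.1 against 29.2 and 26.6 (1.498 ± 0.30), and Parp14, a mono-ADP-ribosyltransferase, at 42.8 and 50.5 against 94.0 and 80.1 (0.96 ± 0.12). The tumor libraries lay above blood for all 4. Ifi44 had 0 UMIs in both blood libraries and 28 and 19 in the tumor libraries, at least 12.7-fold higher if blood is set at its floor (3 UMIs over both libraries), but its tumor levels of 1.81 and 0.779 CPM became 0.162 and 0.145 without cells with phagocyte RNA, and it was not tested there. Rtp4, a Golgi chaperone of receptors, overlapped, at 89.0 and 132 against 119 and 137. Trim30a, a TRIM protein that restrains Toll-like receptor signalling, fell from 406 and 396 to 259 and 263, a difference of -0.56 ± 0.13 (adjusted p = 0.00602, edgeR's quasi-likelihood test); without cells with phagocyte RNA the groups still did not overlap, and the difference of -0.26 ± 0.12 did not pass. Trim30a has a close copy, Trim30d, and its counts carry the same uncertainty as those of Ifit3.

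Of the 6 interferon-gamma members, GTPases that act in defence against intracellular pathogens, 4 rose and 0 fell, with 4 at an unadjusted p under 0.05 (edgeR's quasi-likelihood test). Gbp5, a guanylate-binding protein that promotes inflammasome assembly, was scarce in blood, at 2.02 and 1.90, and at 25.3 and 19.3 in tumor, a difference of 3.56 ± 0.20 (adjusted p = 7.84e-06, edgeR's quasi-likelihood test) and of 3.39 ± 0.20 without cells with phagocyte RNA. Gbp3 was also scarce, at 1.09 and 1.65 against 8.96 and 5.70 (2.43 ± 0.31). Gbp2 was at 25.6 and 23.0 against 48.6 and 35.6, a smaller difference of 0.84 ± 0.15. Among the immunity-related GTPases, Ifi47 was at 10.1 and 11.0 against 26.1 and 18.1 (1.11 ± 0.17), whereas Igtp (10.8 and 16.7 against 16.3 and 9.43) and Irgm1 (22.5 and 30.3 against 31.3 and 25.8) overlapped. The guanylate-binding proteins thus all rose, and of the 3 immunity-related GTPases only Ifi47 passed.

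Of the 23 members called, 18, all of them higher in the tumor, were called under every setting in which they could be tested, and none changed sign. Ifih1, Slfn5, Oasl2, Oas3 and Trim30a lost their call under at least 1 setting. Together the 33 members made up 2401 and 3067 CPM in blood and 3858 and 4145 in sorted tumor neutrophils. Their make-up differed as well: Ifitm3, Trim30a and Oasl2 held 56.7% and 52.8% of the members' UMIs in blood, whereas Slfn4, Ifitm3 and Rsad2 held 42.1% and 47.4% in the tumor. Isg15 went from 2.60% and 2.92% of the members' UMIs to 9.98% and 9.03%.

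The next question is whether all neutrophils carry these transcripts or only some. Each cell was thinned to 1000 UMIs, which left out 130 and 572 cells in blood, 99 and 184 in sorted tumor and 100 and 32 in the CD45+ libraries. A blood neutrophil then held 2.40 and 3.04 type I member UMIs on average and a sorted tumor neutrophil 3.89 and 4.15. Tumor neutrophils nevertheless had none more often, in 31.5% and 25.6% of cells against 23.1% and 15.7% in blood, and had 10 or more in 10.9% and 11.5% against 3.10% and 4.79%. The tenth of cells with the most held 58.2% and 52.9% of the type I UMIs in sorted tumor, 56.5% and 52.2% in CD45+ tumor and 39.4% and 36.5% in blood neutrophils. Type I member RNA, taken as a sum, was thus more unevenly spread over tumor than over blood neutrophils in each library, and without cells with phagocyte RNA the sorted tumor shares were 59.1% and 53.5%. The genes that made up most of the sum differed between blood and tumor, and the spread of single genes was not compared. In the other tumor leukocytes this share was 44.7% and 43.4% (phagocytes), 40.6% and 39.1% (microglia), 36.4% and 38.2% (dendritic cells), 42.9% and 40.3% (T cells) and 48.6% and 49.5% (B cells, with a mean below 1 UMI). These shares were not tested.

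**Figure D3:**
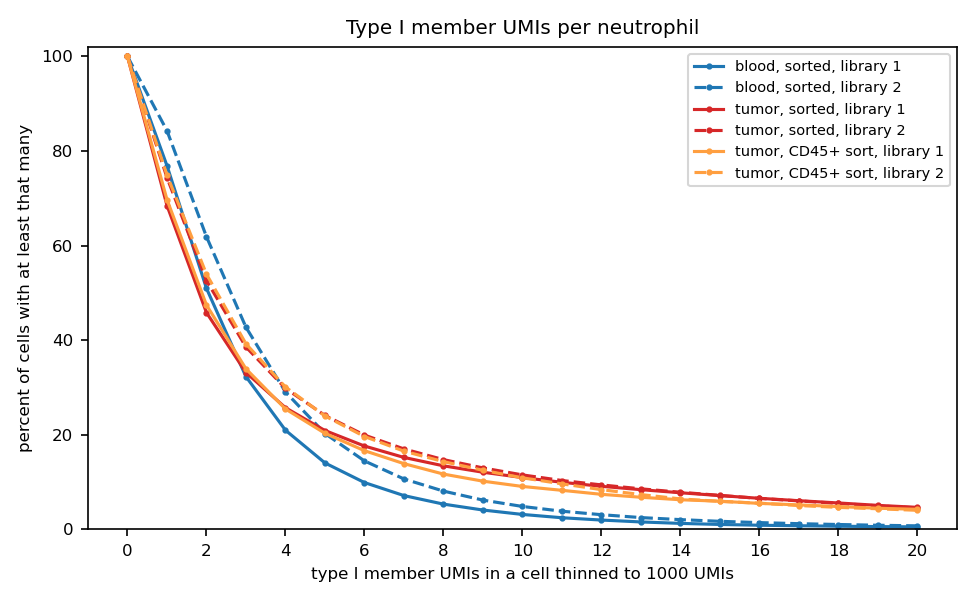
Percent of neutrophils with at least a given number of type I member UMIs, after thinning to 1000 UMIs per cell, with 1 line per library. The blood lines start above the tumor lines at 1 UMI and end below them: 3.10% and 4.79% of blood and 10.9% and 11.5% of sorted tumor neutrophils reach 10 UMIs.

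The share of cells with an Isg15 UMI after thinning was 5.12% (exact 95% interval 4.32% to 5.98%) and 7.096% (6.37% to 7.90%) in blood, 18.8% (17.5% to 20.2%) and 18.9% (17.9% to 20.0%) in sorted tumor, and 13.05% (10.2% to 16.3%) and 18.0% (15.4% to 20.9%) in CD45+ tumor neutrophils; these intervals cover counting error only. Unthinned shares were 14.0% and 17.8%, 33.9% and 35.1%, and 19.4% and 31.6%, at median depths of 4253 and 3952, 3904 and 3871.5, and 1613.5 and 2648 UMIs. Tumor B cells, the class with the fewest member UMIs, gave 0.431% and 0% of 197 and 49 cells at 1000 UMIs (unthinned 0.922% and 0%, at median depths of 2012 and 3417), so the neutrophil shares were well above that level. The intervals of blood and sorted tumor did not meet.

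Each of 12 members examined, a part of the list set by hand, was detected more often in neutrophils that also held Isg15. Genes outside the members were not examined in this way, so a general difference between those cells was not tested. In sorted tumor neutrophils Rsad2 was detected in 40.3% and 39.5% of cells with an Isg15 UMI and in 7.38% and 9.19% of those without one. In blood the same shares were 19.0% and 24.1% against 3.35% and 5.47%. Slfn4 was detected in 61.4% and 64.3% of tumor neutrophils with Isg15 against 24.9% and 33.1% without it, and Ifit1 in 19.8% and 19.1% against 1.75% and 2.33%. Trim30a, which was called lower with all cells but not without cells with phagocyte RNA, was detected in 40.6% and 38.2% against 15% and 15.5%. Ifitm3, which did not pass, was detected in 54.2% and 56.4% against 21.8% and 28.5%. Among tumor neutrophils without Isg15, Trim30a was less frequent than among blood neutrophils without it (30.3% and 29.3%), and so was Ifitm3 (41.3% and 49.5% in blood). Each share rests on 612 and 1015 tumor cells and 144 and 315 blood cells with Isg15, averaged over 20 random draws. Cells of 1 library are not replicates, and no test was made.

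**Figure D4:**
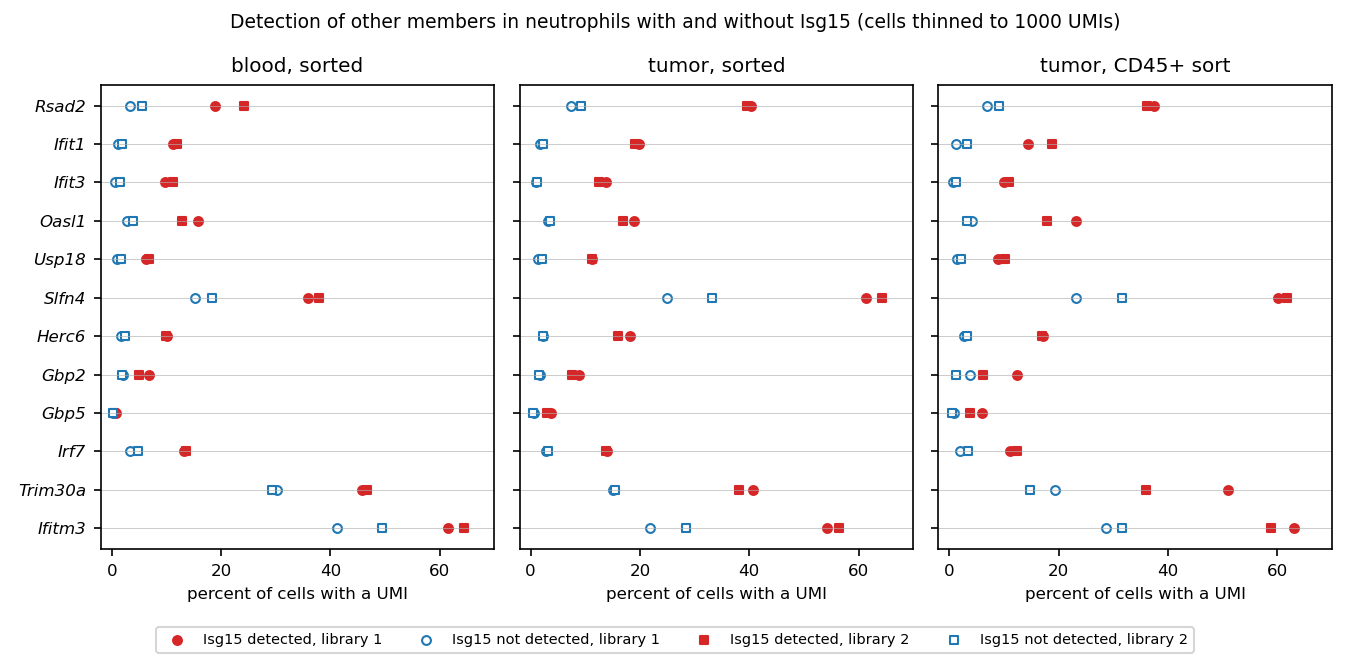
Percent of neutrophils with a UMI of each of 12 members, among cells with (filled) and without (open) an Isg15 UMI, after thinning to 1000 UMIs; circles and squares are libraries 1 and 2 of each group. Filled points lie to the right of open points for every member shown in the tumor panels, as for Rsad2 at 40.3% and 39.5% against 7.38% and 9.19% in the sorted tumor.

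Neutrophils picked from the CD45+ tumor libraries by the same rule gave a second tumor group against the same blood libraries; the 2 comparisons share those controls and are given side by side. Of 32 members tested 11 were higher and 5 lower, against 30.1% and 29.9% of all 12310 genes, with a median of 0.499 over members and -0.0111 over all genes. The members' share of higher genes was thus near the background, and their share of lower genes below it. Isg15 was at 209 and 247 in these libraries (1.22 ± 0.20), Rsad2 at 415 and 317 (1.94 ± 0.26), Bst2 at 117 and 156 (4.04 ± 0.27), Gbp5 at 33.2 and 29.998 (3.62 ± 0.23) and Slfn4 at 507 and 569.7 (0.80 ± 0.17). Of the other members called higher, Ifit2 was at 47.6 and 38.5 (3.63 ± 0.30), Zbp1 at 44.8 and 34.7 (1.10 ± 0.29), Oasl1 at 115 and 99.4 (0.78 ± 0.16), Herc6 at 61.4 and 63.8 (0.74 ± 0.21), Parp14 at 98.9 and 84.4 (0.59 ± 0.15) and Gbp3 at 10.1 and 11.8 (2.62 ± 0.37). Ifit1 was far apart in the 2 libraries, at 48.4 and 115, and did not pass (1.22 ± 0.43). Both CD45+ libraries exceeded both blood libraries for each of the 11 higher members. That adds no support, since these members were picked by a test on the same libraries. Over all genes, called or not, the libraries of the groups did not overlap for 82.1%. The 5 lower members were Irf9 (53.4 and 58.5), Oasl2 (181 and 159.7), Oas3 (59.9 and 47.3), Rtp4 (75.1 and 93.5) and Trim30a (287 and 221); without cells with phagocyte RNA 10 members were higher and 1, Trim30a, was lower, against 21.6% and 21.4% of all genes. Bst2 was then at 24.0 and 38.2 (2.44 ± 0.31) and Gbp5 at 25.2 and 11.4 (3.14 ± 0.45), while Gbp3 at 1.20 and 5.13 (1.504 ± 0.67) and Zbp1 at 28.8 and 26.8 (1.01 ± 0.33) did not pass. Ifit1 (1.63 ± 0.38) did, and the differences of Isg15 (1.84 ± 0.26), Rsad2 (2.72 ± 0.30) and Slfn4 (1.69 ± 0.20) were larger. Scaling moves every difference of this comparison by -0.38 (0.03 without those cells): on unscaled totals 16 members were higher and 3 lower, and the split of all genes moved from 3703 higher and 3684 lower to 4716 and 2515. The member median turned to -0.35 when the neutrophil rule was lowered to 0.1%, and 10 members were then lower. Without blood library 1 the counts were 6 higher and 5 lower with a median of 0.225, and without blood library 2 they were 14 and 2.

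Between the 2 tumor groups few members passed the test. The median log2 difference was 0.402 over the members and -0.029 over all genes. By edgeR's quasi-likelihood test 13 of the 33 had an unadjusted p under 0.05. The share of all genes at that p is not given here, so the unadjusted counts of this comparison are not read against a background. In data simulated for this comparison the test recovered 20% of 2-fold changes, so few calls do not show that few members differ. Isg15 (1.09 ± 0.18) and Rtp4 (0.95 ± 0.21) were higher in the sorted than in the CD45+ neutrophils and 0 were lower, against 2.18% and 3.95% of all 12497 genes. By DESeq2 6 members were higher and 0 lower, against 568 and 598 of the 12497 genes. Without cells with phagocyte RNA 0 members passed in either direction, with 5 at an unadjusted p under 0.05, against 0.0276% and 0.645% of all genes. Without shared barcodes 0 passed, with 13 at an unadjusted p under 0.05. The member median was 0.507 without sorted library 1 and 0.346 without sorted library 2, against -0.087 and -0.046 over all genes. It was 0.409 without CD45+ library 1 and 0.412 without CD45+ library 2, against -0.0015 and 0.033. On unscaled totals 1 was higher and 1 lower, and the split of all genes moved from 273 higher and 494 lower to 142 and 1808.

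Within the CD45+ tumor libraries the members were then compared between neutrophils and 5 other classes, formed by clustering without the members. The classes held 4715 and 4993 phagocytes (macrophages and monocytes), 521 and 838 microglia, 691 and 786 dendritic cells, 488 and 224 T cells, and 217 and 51 B cells. Phagocyte clusters 1, 8 and 10 came mostly from library 1 and clusters 2, 3, 4 and 12 mostly from library 2. Counted over the 33 members, neutrophils were higher than phagocytes for 23 and lower for 2, against 26.5% and 27.4% of all 13277 genes. Against microglia the counts were 20 and 3 (23.7% and 27.6% of all genes), against dendritic cells 13 and 5 (27.3% and 28.7%), against T cells 23 and 3 (23.8% and 25.5%), and against B cells 31 and 0 (26.7% and 15.3%), all by edgeR's quasi-likelihood test with Benjamini-Hochberg adjustment. Every one of the 33 fitted differences from B cells was above 0 in that fit, the smallest for Gbp3 (0.38), so 0 were lower at an unadjusted p under 0.05 too. Without cells with phagocyte RNA they were 21 and 4 against phagocytes (26.3% and 33% of all genes), 17 and 3 against microglia (26.8% and 34%), 14 and 6 against dendritic cells (25.5% and 34.1%), 21 and 4 against T cells (24.4% and 34%), and 26 and 0 against B cells (23.5% and 17.8%). On totals without scaling, with all cells, they were 22 and 2, 15 and 5, 11 and 7, 14 and 7, and 23 and 0. All 13277 genes then split, in the same order, into 2951 higher and 4825 lower, 2395 and 5729, 3008 and 5183, 2072 and 6168, and 2195 and 3684. With scaling the splits were 3513 and 3635, 3151 and 3663, 3631 and 3810, 3164 and 3392, and 3547 and 2025. With DESeq2's size factors in edgeR they were 4038 and 2820, 3540 and 2979, 4156 and 2908, 3746 and 2550, and 3545 and 2068. The members were then 25 and 1, 20 and 3, 16 and 3, 24 and 1, and 31 and 0 higher and lower in the 5 comparisons.

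Summed over the members, dendritic cells had the most, 4647 and 3989 CPM, then neutrophils with 3666 and 3748. Phagocytes had 2945 and 2482, microglia 2260 and 2491, T cells 2320 and 2168, and B cells 662 and 442. The sums of dendritic cells and neutrophils did not overlap, nor did those of neutrophils and phagocytes, whereas phagocytes overlapped with microglia and microglia with T cells. Ifitm3 alone, with levels given below, differed more between dendritic cells and neutrophils than the sums did, so the dendritic cell lead rests on that gene. These sums also lack the scaling used in the fits. With all cells, neutrophils had the highest mean of the 6 classes for 15 members, 12 of them with both libraries above both of the next class. Dendritic cells were highest for 9 (7 without overlap), T cells for 5 (3) and microglia for 4 (1).

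Slfn4 was the member most concentrated in neutrophils, at 507 and 569.7 CPM against 49.0 and 36.6 in phagocytes, 20.3 and 15.96 in T cells, 6.64 and 8.47 in dendritic cells and 4.17 and 5.29 in microglia. Neutrophils exceeded phagocytes by 3.88 ± 0.15 on the log2 scale. Rsad2 was at 415 and 317 in neutrophils and 134 and 73.9 in phagocytes, 76.1 and 43.8 in dendritic cells, 42.8 and 59.8 in microglia and 41.8 and 36.4 in T cells, so both neutrophil libraries lay above all others. Oasl2 was called lower in tumor than in blood with all cells but not without cells with phagocyte RNA. Within the tumor it was highest in neutrophils, at 181 and 159.7 against 97.4 and 78.0 in dendritic cells and 53.7 and 39.6 in phagocytes. Isg15 was at 209 and 247 in neutrophils, 173 and 166 in dendritic cells, 94.6 and 85.1 in phagocytes, 83.8 and 80.7 in T cells and 69.5 and 88.6 in microglia. Microglia overlapped with phagocytes and with T cells, whereas neutrophils exceeded dendritic cells by 0.70 ± 0.14 (log2).

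Further members also had their highest level in neutrophils. Trim30a was at 287 and 221 in neutrophils and next at 194 and 193 in microglia, Oasl1 at 115 and 99.4 and next at 35.9 and 66.6 in microglia, and Rtp4 at 75.1 and 93.5 and next at 25.0 and 39.9 in microglia. Ddx58 was at 67.1 and 57.1 in neutrophils and 38.4 and 43.9 in T cells, Oas3 at 59.9 and 47.3 against 22.7 and 15.5, and Ifit1 at 48.4 and 115 against 23.2 and 47.4. The libraries of these 6 genes did not overlap with the next class. For Ifit2 (47.6 and 38.5 in neutrophils, 45.1 and 39.9 in dendritic cells) and Ifit3 (39.7 and 50.6 against 40.5 and 41.3) neutrophils and dendritic cells overlapped. Cmpk2 was at 41.1 and 18.2 in neutrophils and 16.7 and 9.72 in phagocytes, and Irf9 at 53.4 and 58.5 in neutrophils and 51.9 and 42.4 in dendritic cells. Irf9 was higher in neutrophils than in dendritic cells by 0.55 ± 0.16 on the log2 scale (adjusted p = 0.00983, edgeR's quasi-likelihood test) and by 0.91 ± 0.20 without cells with phagocyte RNA. Without those cells neutrophils had a lower mean than dendritic cells for Ifit2 (20.4 and 34.8), Ifit3 (29.99 and 37.7) and Gbp2 (61.2 and 26.2, against 69.95 and 30.6 in dendritic cells).

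Other members were highest elsewhere. Ifitm3 reached 2628 and 2258 in dendritic cells and 1519.5 and 1316 in phagocytes against 723 and 814 in neutrophils, 839 and 681 in T cells and 741 and 696 in microglia. Bst2 was highest in microglia, at 264 and 398, against 117 and 156 in neutrophils (24.0 and 38.2 without cells with phagocyte RNA). Stat2 was highest in dendritic cells, at 105 and 76.8 against 37.5 and 36.8, and so was Ifi44, at 15.3 and 16.3 against 2.17 and 2.35. Dendritic cells also led for Slfn5 (172 and 133 against 108 and 120.0 in neutrophils), Herc6 (80.8 and 75.2 against 61.4 and 63.8), Irf7 (71.1 and 65.7 against 46.9 and 62.1) and Usp18 (38.1 and 34.8 against 27.4 and 34.7), but none of these 4 passed the test between the classes. These CPM lack the scaling of the fit. There the log2 differences (neutrophils minus dendritic cells) of Herc6, Irf7 and Usp18 lay between -0.031 and 0.08. The sensor Ifih1 was at 85.9 and 101.6 in microglia, 90.9 and 63.3 in dendritic cells and 55.6 and 79.1 in neutrophils, which overlapped with dendritic cells, and Zbp1 at 66.1 and 52.8 in T cells, 51.7 and 50.6 in microglia and 44.8 and 34.7 in neutrophils. Igtp was highest in T cells, at 41.8 and 29.7 against 17.3 and 12.1 in neutrophils, as was Gbp3, at 31.1 and 24.4 against 10.1 and 11.8 (1.20 and 5.13 without those cells), and Ifi47, at 36.0 and 33.7 against 17.3 and 16.2 in neutrophils and 7.23 and 7.31 in microglia. Gbp5 was at 53.7 and 39.8 in microglia, 44.9 and 40.3 in dendritic cells, 32.6 and 33.3 in T cells and 33.2 and 29.998 in neutrophils (25.2 and 11.4 without those cells), and with all cells neutrophils did not pass the test against any of those 3; phagocytes were lower, at 16.6 and 7.41. With all cells, neutrophils thus had the highest mean for 8 of the 10 antiviral effectors, among them Ifit2 and Ifit3, and for 1 of the 6 interferon-gamma GTPases, Gbp2, 3 genes that lost this place without cells with phagocyte RNA; whether these groups differ in this was not tested.

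**Figure D5:**
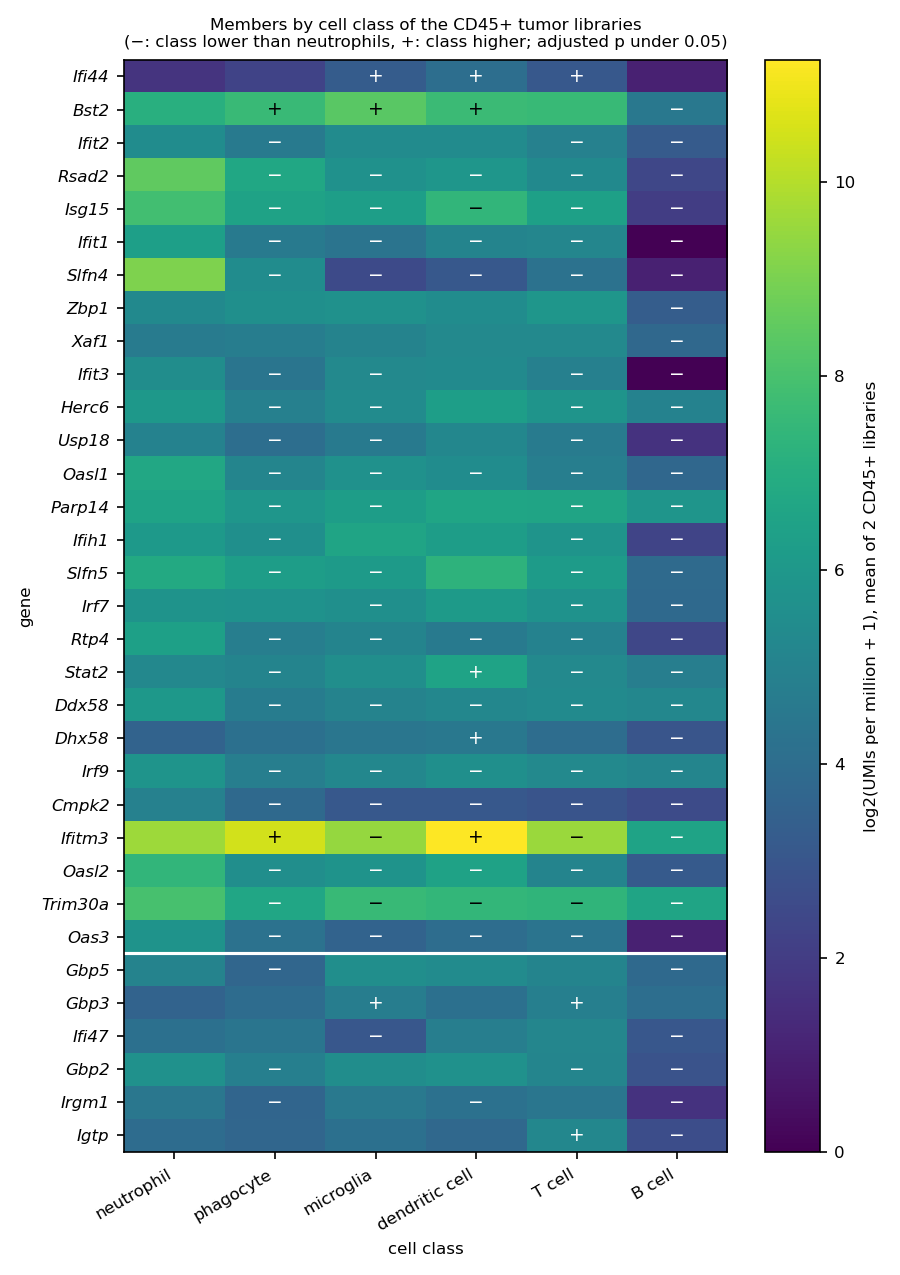
Level of each member in 6 cell classes of the CD45+ tumor libraries, as log2 of CPM plus 1, averaged over 2 libraries; signs mark classes lower (−) or higher (+) than neutrophils at an adjusted p under 0.05. Slfn4 is bright in neutrophils alone (507 and 569.7 CPM), Ifitm3 is brightest in dendritic cells (2628 and 2258), and the B cell column is dark for most members.

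The rest of the pathway was read from lists of its genes in sorted tumor against blood neutrophils. Of 21 ligand genes 15 had 0 UMIs in the neutrophils of all 6 libraries. Ifnb1 had 0 UMIs in both blood libraries and 1 and 4 in sorted tumor neutrophils, and Ifng had 0 in all 6. Among the classes compared in the CD45+ libraries Ifng lay with T cells, with 358 and 106 UMIs, that is 86.4 and 47.0 CPM. Phagocytes had 2 and 2 UMIs and dendritic cells 1 and 2. Clusters named NK cells (120 and 83 cells) and plasmacytoid dendritic cells (17 and 7) were outside these classes, and their ligand UMIs were not counted. Ifnb1 had 1 and 45 UMIs in phagocytes and 0 and 29 in dendritic cells, so nearly all came from library 2.

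Of the 6 receptor chains 2 rose and 3 fell. Ifnar1, a chain of the type I receptor, was at 56.2 and 58.7 CPM in blood and 59.0 and 49.0 in tumor, and Ifnar2, the other chain, at 166 and 156 against 217 and 195 (0.41 ± 0.12). Il10rb, shared by the interferon-lambda receptor, rose by 0.54 ± 0.11 and its partner Ifnlr1 fell (-1.81 ± 0.18). Both chains of the interferon-gamma receptor fell, Ifngr1 from 192 and 160 to 137 and 116 (-0.43 ± 0.14) and Ifngr2 from 157 and 148 to 75.2 and 54.9 (-1.19 ± 0.14). Of the receptor-bound kinases, Jak2 rose (1.38 ± 0.13) and Tyk2 fell (-1.03 ± 0.22), while Jak1 was at 422 and 407 in blood and 421 and 427 in tumor and passed only without cells with phagocyte RNA (0.37 ± 0.12). Of 5 other IRFs 2 rose, Irf8 and Irf5 (0.75 ± 0.14), and 2 fell, Irf2 (-1.37 ± 0.13) and Irf1 (-0.77 ± 0.14). Irf8, a factor of monocytes and dendritic cells, had 3 and 13 UMIs in blood and 549 and 639 in tumor, and its difference of 6.01 ± 0.31 became 3.39 without cells with phagocyte RNA.

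Of 10 genes of sensing and induction tested 6 rose and 1 fell, among them Ikbke (3.87 ± 0.22) and Tlr3 (3.61 ± 0.43, not tested without cells with phagocyte RNA) that rose, and Myd88 (-1.504 ± 0.15), an adaptor of Toll-like receptors, that fell. Without cells with phagocyte RNA 4 of 9 rose and 1 fell, and the median went from 1.517 to 0.621. Of 8 inhibitors tested 3 rose and 3 fell. Socs1, an interferon-induced inhibitor of JAK kinases, was at 8.71 and 9.56 in blood and 27.7 and 36.4 in tumor (1.88 ± 0.21), and the phosphatase gene Ptpn2 rose by 1.93 ± 0.12, whereas Ptpn6 (-1.47 ± 0.14) and Samhd1 (-1.44 ± 0.16) fell. Of 38 other type I targets 24 rose and 6 fell. These lists are read against the 33.3% of all genes that were higher and the 30.7% that were lower. Cxcl10, a chemokine that attracts T cells, had 4 and 6 UMIs in blood and 1922 and 2207 in tumor neutrophils, where its level of 124 and 90.5 CPM became 99.1 and 78.1 without cells with phagocyte RNA. Ms4a4c had 1 and 0 UMIs against 315 and 258. Epsti1 (-0.87 ± 0.12) and Ddx60 (-0.84 ± 0.17) fell. Of 14 other interferon-gamma targets tested 6 rose and 4 fell: Gbp6 had 0 UMIs in blood and 32 and 21 in tumor, Iigp1 0 and 1 against 91 and 43, and neither was tested without cells with phagocyte RNA, while Psmb9 (-1.57 ± 0.15) and Irgm2 (-0.90 ± 0.12) fell. Without those cells 3 of 10 rose and 3 fell, against 29% and 28.4% of all genes, and the median went from 0.083 to -0.473. The other type I targets were then 23 higher and 3 lower of 37, and the inhibitors 3 and 2 of 8. Mx1 and Mx2 were not analysed here. These pathway differences are from the same edgeR fit, and the values after ± are standard errors.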

How the data were processed

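UMI counts per gene and cell were deposited as filtered matrices of 6 10x Chromium 3′ libraries; per the submitters' processing notes Cell Ranger 7.1.0 and the build mm10 were used, and the annotation and the treatment of multi-mapping reads are not given in the sources used here. Each library had 3121 to 9418 barcodes and 13945799 to 129422458 UMIs. Barcodes under 200 genes or above 10% mitochondrial UMIs were dropped, and doublets were removed by scrublet rank at 0.8% per 1000 cells, because its automatic threshold marked under 0.5%. Neutrophils were taken by the S100a8 and S100a9 rule at 0.5%: 86 to 420 cells per library lay between 0.5% and 1%, and 31 to 266 between 0.25% and 0.5%. S100a8 and S100a9 were themselves lower in tumor than in blood.

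UMIs were summed per library and class and tested with edgeR 4.0.16 (quasi-likelihood test, TMM scaling, filterByExpr, group as the only term, Benjamini-Hochberg adjustment over all genes, threshold 0.05) in R 4.3.3; the standard error is the absolute log2 difference divided by the square root of F. Classes of the CD45+ libraries came from Leiden clusters (scanpy 1.11.5, 2000 variable genes, 30 components, 15 neighbours, resolution 1) built without the members and pathway genes and named from marker lists. The naming threshold was set after seeing the data, macrophage and monocyte clusters were joined as phagocytes, and clusters 9 and 11 (769 and 3, 370 and 183 cells) stayed unnamed. Cluster 19 (110 and 113 cells) carried neutrophil markers under the 0.5% rule and was left out. So were clusters 21 (NK cells, 120 and 83), 22 (mast cells or basophils, 20 and 17) and 23 (plasmacytoid dendritic cells, 17 and 7). The class fits had the library as a replicate block, since all classes of a library share it. For shares of cells, UMIs were thinned to 1000 per cell over 20 draws. All 33 members are named; in each pathway list the genes named are 9 core genes and up to 2 called genes with the largest rise and 2 with the largest fall among those whose groups did not overlap; 1 gene of these lists is not reported here. The members and lists were chosen with earlier results of these data known. In data simulated for the sorted tumor against blood comparison (13635 genes), the test recovered 49% of 2-fold and 84% of 4-fold changes. It recovered 7% and 57% for CD45+ tumor against blood (12310 genes), and 20% and 74% for sorted against CD45+ tumor (12497 genes). Each of these simulations also gave 11 false calls, among genes simulated without a change. Alternatives were DESeq2 1.42.0, its size factors in edgeR, no scaling, no filter, other neutrophil thresholds (0.1% and 2%), no doublet removal, deeper cells, a replicate block and leaving out libraries, cells with phagocyte RNA or shared barcodes. Promoter windows and sequences are from RefSeq (GRCm38.p6).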

Additional observations from a re-analysis of the deposited data

How the results depend on the processing

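In sorted tumor against blood neutrophils none of the 23 members called changed sign; leaving out 1 library gave 18 to 22 higher and 1 to 4 lower members with a median of 0.856 to 1.10. The 3 lower calls became 0 without cells with phagocyte RNA (also with DESeq2's size factors, without shared barcodes or at a 2% neutrophil threshold), 1 at the 2% threshold and 1 without shared barcodes; the median was then 1.17 without cells with phagocyte RNA, 1.21 with those size factors, 1.18 without shared barcodes and 1.09 at 2%. For CD45+ tumor against blood, lower members numbered 1 without cells with phagocyte RNA (also with those size factors, unscaled or without shared barcodes), 8 with no filter, 3 unscaled, 0 at 2% (with or without those cells) and 10 at 0.1%, where 6 were higher; the median was 0.807 at 2%, -0.35 at 0.1% and 0.865 unscaled, and leaving out 1 library gave 6 to 14 higher, 2 to 7 lower and medians of 0.225 to 0.637. Reversed there were, at 0.1%, Oasl1 (-0.39), Herc6 (-0.0667), Slfn4 (-0.44) and Parp14 (-0.10), at 2% Rtp4 (0.021), and at 2% without cells with phagocyte RNA Rtp4 (0.17) and Oas3 (0.017). For sorted against CD45+ tumor neutrophils, higher members numbered 0 without cells with phagocyte RNA under each scaling, 0 at 2%, 0 without shared barcodes, 1 unscaled (1 lower), 6 with DESeq2, 11 with no filter, 12 with no doublet removal (1 lower) and 28 at 0.1%, and 0 to 8 (0 to 1 lower, medians 0.346 to 0.507) with 1 library left out; the median was 0.0879 at 2%, 0.123 at 2% without cells with phagocyte RNA, 1.24 at 0.1%, 0.0408 unscaled and 0.119 unscaled without those cells. Reversed there at 0.1% were Ifit2 (0.85), Cmpk2 (1.03) and Gbp5 (0.63). Between classes, lower members numbered 4 against phagocytes without cells with phagocyte RNA and 1 with DESeq2 or its size factors, 5 against microglia unscaled, 3 against dendritic cells with DESeq2 or its size factors, and against T cells 1 with those size factors, 0 with DESeq2 and 7 unscaled, where 14 were higher and Parp14 turned to -0.00273. Thinned to 500 UMIs, the share of cells with a member UMI was 62.3% in blood, 56.2% in sorted tumor and 58.2% in CD45+ tumor neutrophils, against 81.2%, 72.0% and 73.2% at 1000. The alternatives without scaling, without shared barcodes and those joining 2 choices were added after seeing the data, and the cause of each change was not tested.

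The labels number the libraries of each group but do not pair them. With the number as a replicate block, 21 members were higher and 3 lower in sorted tumor against blood, 15 and 7 in CD45+ tumor against blood, and 3 and 0 in sorted against CD45+ tumor; deviations of same-numbered libraries correlated at 0.198, 0.24 and 0.301 in these comparisons. With no replicate block the class counts were 21 and 0 (phagocytes), 15 and 3 (microglia), 11 and 3 (dendritic cells), 18 and 1 (T cells) and 29 and 0 (B cells). Leaving out 1 library leaves the class fits no residual degrees of freedom, so it was not run. Depth limits the scarce members most: Ifi44, Gbp3 and Dhx58 had the lowest levels in tumor neutrophils.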
